A study of Homo sapiens with 18 samples.

Results

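MHC class I molecules carry short peptides from the inside of a cell to its surface, where T cells and natural killer cells read them. A heavy chain pairs with beta-2 microglobulin, and the pair is filled in the endoplasmic reticulum with peptides that proteasomes have cut and the TAP transporter has pumped across the membrane. Interferons raise most genes of this pathway, and NLRC5, IRF1 and NF-kB are known activators of their promoters. The 9 genes described here were listed by symbol: the heavy chains HLA-B, HLA-C, HLA-E and HLA-F, the light chain B2M, the transporter subunits TAP1 and TAP2, the immunoproteasome subunit PSMB9, and NLRC5. Each symbol matched 1 identifier, so they are 9 of the 61487 identifiers in the table, and all 9 were among the 18544 genes that passed the filter on low counts.

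RNA was counted in 18 libraries of MSC-hTERT, a line of human mesenchymal stem cells immortalized with telomerase, in 6 groups of 3. The cells carried pMSCV (a retroviral vector that serves here as control), SRF (serum response factor, a transcription factor), or SRF fused to FOXO1, ICA1L, PDGFRB or RELA. All groups grew in serum medium with FGF-2, ascorbic acid and heparin, and the labels name no interferon or other stimulus. The labels number the libraries of a group 1 to 3 and do not say whether these are separate cultures or clones, so the p-values measure only the spread between these libraries. Totals ran from 19362319 to 29806771 counts.

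Counts do not tell construct reads from native ones. In pMSCV, SRF was at 61.0 ± 3.56 CPM (counts scaled to the library's total, SD, n = 3), and its means in the other groups ran from 182 to 945 CPM. RELA was at 256 ± 19.2 CPM in SRF-RELA and at 85.0 to 94.5 CPM elsewhere, and ICA1L was at 136 ± 16.7 CPM in SRF-ICA1L and at 9.80 to 13.5 CPM elsewhere. FOXO1 itself was at 12.6 ± 4.27 CPM in pMSCV and at 9.79 ± 3.99 CPM where the label is SRF-FOXO1, so its own counts do not check that label. The 5 mesenchymal stem cell markers summed to between 1100 and 1810 CPM in each library. Among them, THY1 was at 56.9 ± 2.32 CPM in pMSCV and rose to 197 ± 43.9 CPM in SRF-ICA1L (edgeR adjusted p 0.00683) and to 136 ± 27.8 CPM with the label SRF-FOXO1 (edgeR adjusted p 0.0410). PDGFRB, a marker and a construct gene, was at 709 ± 204.5 CPM in SRF-PDGFRB and at group means of 368 to 493 CPM elsewhere. The 6 leukocyte markers, from cells rich in class I, summed to at most 1.11 CPM, with CD3E at 0 in every group. Among 18041 genes with a known transcript length, SRF replicate 3 and SRF-FOXO1 replicate 1 stood apart: their values shifted by -0.131 and -0.0806 on the log2 scale for each doubling of transcript length, against -0.0194 to 0.0480 in the other 16 libraries.

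The promoters of these genes are shown first because the transcription factors in question include SRF itself and RELA, the NF-kB subunit that 1 fusion is named for. RefSeq's GRCh38.p14 table held the promoters of 7 of the 9 genes. The 4 below are the ones that hold an NF-kB consensus, and each runs over the 250 bases before the start site, 5′ to 3′ on the gene's own strand. Capitals mark the NF-kB consensus and the IRF core AANNGAAA, the letters that interferon regulatory factors read, on either strand. They lie at chr6:31357180-31357429 on the minus strand, chr6:31272093-31272342 on the minus strand, chr15:44711267-44711516 on the plus strand and chr6:32853705-32853954 on the minus strand, in that order.
HLA-B: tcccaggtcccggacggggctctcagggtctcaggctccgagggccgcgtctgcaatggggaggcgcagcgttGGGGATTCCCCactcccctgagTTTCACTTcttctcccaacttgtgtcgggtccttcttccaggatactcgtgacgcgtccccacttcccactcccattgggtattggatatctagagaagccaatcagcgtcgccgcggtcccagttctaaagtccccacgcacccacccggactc
HLA-C: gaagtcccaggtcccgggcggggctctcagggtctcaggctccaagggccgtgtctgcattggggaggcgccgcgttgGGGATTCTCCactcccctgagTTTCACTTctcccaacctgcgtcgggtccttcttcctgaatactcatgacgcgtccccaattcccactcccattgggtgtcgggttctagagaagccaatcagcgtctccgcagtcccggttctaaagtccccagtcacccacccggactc
B2M: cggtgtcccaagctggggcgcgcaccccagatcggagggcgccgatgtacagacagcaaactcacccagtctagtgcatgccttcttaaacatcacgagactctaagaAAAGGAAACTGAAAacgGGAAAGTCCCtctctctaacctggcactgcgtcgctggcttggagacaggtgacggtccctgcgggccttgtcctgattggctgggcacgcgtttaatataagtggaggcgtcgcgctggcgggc
TAP1: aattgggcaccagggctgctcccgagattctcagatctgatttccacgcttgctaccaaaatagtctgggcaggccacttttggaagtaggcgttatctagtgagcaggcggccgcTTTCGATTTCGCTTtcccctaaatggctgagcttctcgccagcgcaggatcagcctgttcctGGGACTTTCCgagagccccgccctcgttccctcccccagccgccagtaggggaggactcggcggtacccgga

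In HLA-B and HLA-C the NF-kB consensus came first, at -177 and -172 from the start site, and the IRF core followed at -155 and -151. In B2M and TAP1 a pair of IRF cores overlapped by 2 bases and the NF-kB consensus lay nearer the start site, at -125 and -72. The IRF core was found in 6 of the 7 promoters (all but PSMB9) and in 20.3% of the 35116 promoters of the table. An NF-kB consensus was found in 4 of 7 and in 9.96% of all, and CCAAT, the letters NF-Y reads, in 6 of 7 and in 32% of all. Neither the GAS letters TTCNNNGAA nor the CArG box of SRF was found in the 7, against 6.57% and 1.16% of all promoters. Each motif was searched on both strands, and a match of letters is a description of the sequence and not a bound site. TAP1 and PSMB9 face away from each other with start sites 488 bases apart, so their 2 windows share 13 bases. The IRF cores and the NF-kB consensus of TAP1 lie between these start sites but outside the PSMB9 window. Their absence from the PSMB9 window therefore does not mean that the start region it shares with TAP1 lacks them.

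The 9 genes were expressed in every library, and their group means in CPM, scaled to the library's total, differed by at most 1.40 times between groups. By edgeR, which scales by TMM, the largest fold was 1.42 (TAP2, SRF-FOXO1 against SRF). Across the 15 pairs of groups, 0 of 135 results (9 genes, 15 comparisons) passed an adjusted p-value of 0.05 by edgeR's quasi-likelihood test, where 0.404% of all results over the 18544 genes did. By the DESeq2 Wald test 0 of 135 passed as well. When the replicate number was added to the edgeR fit as a block, 1 of 135 passed, and that result is given with the alternatives at the end. Without adjustment, 7 of 135 (5.19%) had a p-value under 0.05, against 8.99% of all results. The 3 libraries of one group lay wholly above or below those of the other in 24 of 135 (17.8%), against 15.5% of all results. These shares were near those of all genes. By comparison, 0 of 9 passed in each. The share of all genes that passed was 0.0270% for SRF, 0.928% for SRF-FOXO1, 0.469% for SRF-ICA1L, 0.0324% for SRF-PDGFRB and 0.183% for SRF-RELA against pMSCV. Against SRF it was 1.36% for SRF-FOXO1, 0.782% for SRF-ICA1L, 0.146% for SRF-PDGFRB and 0.388% for SRF-RELA. Between fusions it was 0.0270% (SRF-FOXO1 against SRF-ICA1L), 0.717% (SRF-FOXO1 against SRF-PDGFRB), 0.00539% (SRF-FOXO1 against SRF-RELA), 0.820% (SRF-ICA1L against SRF-PDGFRB), 0.0108% (SRF-ICA1L against SRF-RELA) and 0.162% (SRF-PDGFRB against SRF-RELA). The confidence intervals say how large a change could have been missed: the 95% intervals, each unadjusted, all lay between 0.591-fold (B2M, SRF-ICA1L against SRF) and 1.89-fold (TAP2, SRF-FOXO1 against SRF). Taken 1 at a time in this fit, each of the 135 intervals lay within a halving and a doubling, and 91 lay within 1.5-fold in both directions. The 95% does not hold for all 135 jointly. Fits that left out libraries moved some values further from 0, TAP2 in SRF-FOXO1 against SRF among them, as given below.

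**Figure D1:**
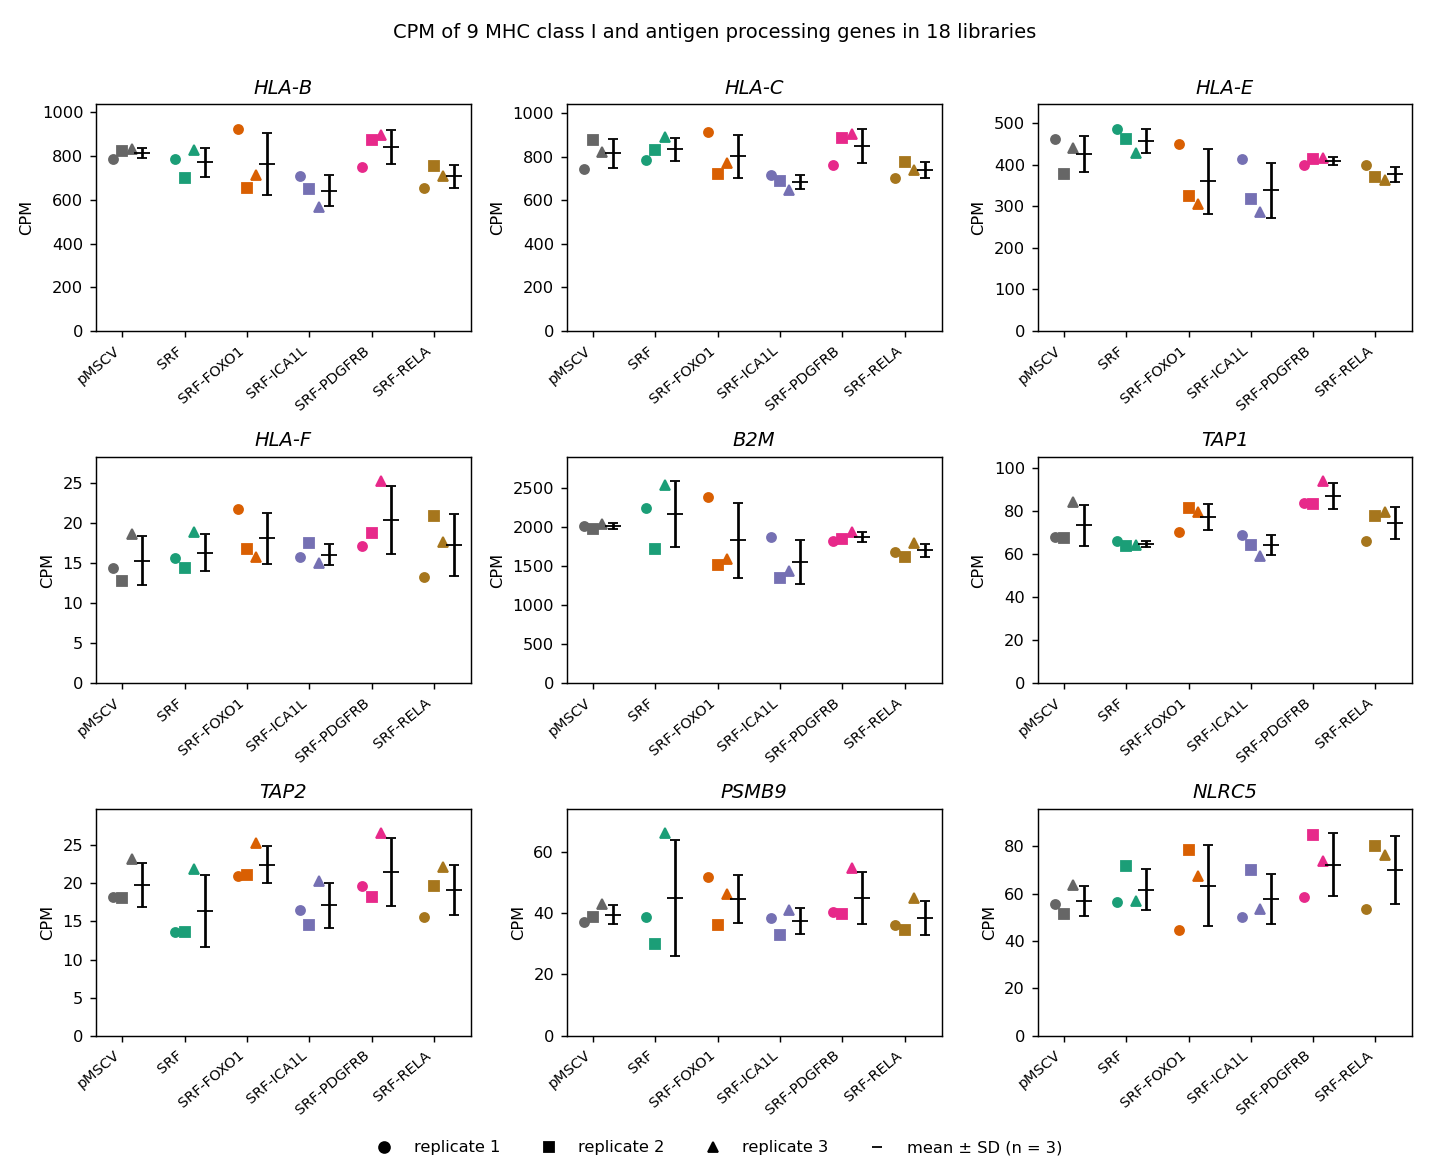
CPM of the 9 genes (vertical axes, from 0) in the 6 groups (horizontal axes), with 1 point per library, the shape giving the replicate number, and bars for the mean ± SD of 3 libraries. For each gene the highest group mean is between 1.20 times (PSMB9) and 1.40 times (B2M) the lowest, and the points of most groups overlap.

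Levels between genes were compared per kilobase of 1 chosen transcript per gene. The median over 18 libraries was 1948 CPM per kb for B2M, 504 for HLA-C, 487 for HLA-B and 156 for HLA-E. It was 50.4 CPM per kb for PSMB9, 23.6 for TAP1, 10.4 for HLA-F, 9.09 for NLRC5 and 3.46 for TAP2. Beta-2 microglobulin, which every heavy chain needs, was thus the most abundant, and TAP2 was the lowest, under its partner TAP1. The heavy chains resemble each other, which bears on these levels: of the 31-base words of the chosen transcript, 20.2% of HLA-C, 15.6% of HLA-B, 11.5% of HLA-E and 7.9% of HLA-F occur in another gene, so their counts depend on how shared reads were treated. For TAP2 the share was 36.0%, nearly all with AL669918.1, an annotated gene that overlaps it on the same strand and had at most 0.0696 CPM. B2M, PSMB9 and NLRC5 had no such word. Over all its annotated exons, however, PSMB9 shares 5.7% of its bases on the same strand with PSMB8-AS1, which was at 4.51 to 10.9 CPM. PSMB8-AS1 also overlaps exons of TAP1 on the opposite strand.

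HLA-B and HLA-C are classical heavy chains, which present peptides to CD8 T cells. HLA-B lies at chr6:31269491-31357188 and HLA-C at chr6:31268749-31272130 (GENCODE release 29, GRCh38, both on the minus strand). The annotated HLA-B span reaches into HLA-C, and 1.1% of the exon bases of HLA-B also belong to it. From the highest group mean to the lowest, HLA-B was at 841 ± 78.3 CPM in SRF-PDGFRB, 816 ± 23.5 in pMSCV, 772 ± 66.95 in SRF, 764 ± 143 in SRF-FOXO1 as labelled, 707 ± 51.3 in SRF-RELA and 642 ± 70.7 in SRF-ICA1L. Its 3 SRF-ICA1L libraries (708, 651 and 568 CPM) lay below the 3 of pMSCV (789, 825 and 833 CPM) and the 3 of SRF-PDGFRB (752, 874 and 898 CPM). The log2 fold change of SRF-ICA1L was -0.23 against pMSCV (95% interval -0.51 to 0.05, edgeR adjusted p 0.576), where 21.7% of all genes did not overlap. HLA-C was at 684 ± 34.2 CPM in SRF-ICA1L, and its group means elsewhere ran from 739 CPM in SRF-RELA to 851 CPM in SRF-PDGFRB. Its SRF-ICA1L libraries (715, 690 and 647 CPM) lay below those of pMSCV (744, 878 and 824 CPM) and of SRF (783, 830 and 889 CPM), the last in a comparison where 15.3% of all genes did not overlap. For HLA-C in SRF-ICA1L the log2 fold change was -0.14 against pMSCV and -0.20 against SRF (95% interval -0.44 to 0.03, edgeR adjusted p 0.504). Neither gene's difference between SRF-ICA1L and its controls passed the test.

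HLA-E presents leader peptides of other class I molecules to natural killer cells, and HLA-F is a related heavy chain of low abundance. They lie on the plus strand at chr6:30489467-30494205 and chr6:29722775-29738528. HLA-E was at 486, 461 and 428 CPM in the 3 SRF libraries, the highest group mean, and at 414, 317 and 286 CPM in those of SRF-ICA1L, the lowest. Those 2 groups did not overlap, and neither did SRF and SRF-PDGFRB (399.7, 413 and 418 CPM, 17.9% of all genes) or SRF and SRF-RELA (399, 370 and 363 CPM, 15.2% of all genes). The SRF-ICA1L against SRF log2 fold change was -0.36 (SE 0.15, 95% interval -0.67 to -0.04), with an unadjusted p of 0.0284 and an edgeR adjusted p of 0.348. HLA-F ranged from 12.7 CPM in pMSCV replicate 2 to 25.2 CPM in SRF-PDGFRB replicate 3. Its largest log2 fold change against a control was 0.41 in SRF-PDGFRB against pMSCV (95% interval -0.005 to 0.82, edgeR adjusted p 1), and the libraries of those 2 groups overlapped.

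B2M, at chr15:44711487-44718877 on the plus strand, was at 2020, 1970 and 2045 CPM in pMSCV and at 2250, 1714 and 2545 CPM in SRF. The 3 SRF-ICA1L libraries were at 1877, 1350 and 1440 CPM, and those labelled SRF-FOXO1 at 2384, 1517 and 1594 CPM. In SRF-PDGFRB, where 9.93% of all genes did not overlap with pMSCV, it was at 1827, 1847 and 1940 CPM, and in SRF-RELA at 1687, 1623 and 1792 CPM. The pMSCV libraries lay close together and above every library of SRF-ICA1L, SRF-PDGFRB and SRF-RELA, while SRF and SRF-FOXO1 each spread over a wide range. The highest values of those 2 groups were in the 2 libraries that stood apart by transcript length, and the B2M transcript, at 943 bases, is the second shortest of the set. The log2 fold change of B2M was largest in SRF-ICA1L against SRF, at -0.40 (95% interval -0.76 to -0.05, SE 0.17, unadjusted p 0.0279, edgeR adjusted p 0.346), lower in 3 of 3 libraries of the same number. Against pMSCV it was -0.26 in SRF-ICA1L, -0.19 in SRF-RELA and -0.11 in SRF-PDGFRB, and each of these intervals included 0.

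TAP1 and TAP2 form the peptide transporter. TAP1 lies at chr6:32845209-32853978 on the minus strand. It was at 68.1, 67.7 and 84.3 CPM in pMSCV, 66.3, 63.9 and 64.2 CPM in SRF, and 70.4, 81.7 and 79.8 CPM where the label is SRF-FOXO1. SRF-RELA libraries were at 66.0, 77.9 and 79.6 CPM, SRF-PDGFRB libraries at 83.6, 83.6 and 94.1 CPM, and SRF-ICA1L libraries at 69.0, 64.4 and 59.4 CPM. SRF-PDGFRB was highest, and its 3 libraries lay above all 12 libraries of SRF and the other fusions. Of all genes, 21.5% did not overlap between SRF-FOXO1 and SRF-PDGFRB, and 13.9% between SRF-PDGFRB and SRF-RELA. The log2 fold change of SRF-PDGFRB against SRF was 0.39 (SE 0.11, 95% interval 0.15 to 0.63), higher in 3 of 3 libraries of the same number. Its unadjusted p of 0.00366 was the smallest of the 135 results, and its edgeR adjusted p was 0.207. The DESeq2 adjusted p was 0.0824, so it passed by neither tool.

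A further 3 results of TAP1 had an unadjusted p under 0.05. With the label SRF-FOXO1 against SRF it stood 0.31 higher on the log2 scale (SE 0.11, edgeR adjusted p 0.221) without overlap, where 12.1% of all genes did not overlap. The log2 fold change was 0.24 in SRF-PDGFRB against pMSCV (edgeR adjusted p 1) and -0.32 in SRF-ICA1L against SRF-PDGFRB (edgeR adjusted p 0.258). In SRF, TAP1 also lay below pMSCV in every library, at -0.15 (95% interval -0.39 to 0.10), against 10.1% of all genes. TAP1 thus gave 4 of the 7 unadjusted results, and they share groups: SRF-PDGFRB enters 3 of them and SRF enters 2.

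TAP2, at chr6:32821833-32838780 on the minus strand, was at 13.7, 13.6 and 21.8 CPM in SRF, the lowest group mean. With the label SRF-FOXO1 it was at 21.0, 21.1 and 25.3 CPM, the highest, and at 18.2, 18.1 and 23.2 CPM in pMSCV. The groups overlapped through SRF replicate 3, which lay above 2 SRF-FOXO1 libraries, and replicate 3 was the highest TAP2 library in 6 of 6 groups. Among libraries of the same number, SRF-FOXO1 was higher in 3 of 3. The log2 fold change of SRF-FOXO1 against SRF was 0.50 (95% interval 0.09 to 0.92, SE 0.20, unadjusted p 0.0202, edgeR adjusted p 0.237), the largest of all 135. Without SRF replicate 3 it was 0.77 and passed, with an edgeR adjusted p of 0.0319. Leaving out SRF-FOXO1 replicate 1 as well, the other library that stood apart, gave 0.84 and an edgeR adjusted p of 0.0295. The share of all genes that passed in these fits is not given here, so they may call more genes in general. TAP2 was at 19.7, 18.2 and 26.6 CPM in SRF-PDGFRB, at 15.6, 19.7 and 22.2 CPM in SRF-RELA, and at 16.5, 14.5 and 20.4 CPM in SRF-ICA1L, and these groups overlapped with both controls.

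PSMB9 replaces a constitutive catalytic subunit in immunoproteasomes and, by the RefSeq start sites, shares the TAP1 start region. Its GENCODE span on the plus strand, chr6:32844136-32859585, begins before the RefSeq start site (chr6:32854192) and includes TAP1. PSMB9 was at 37.2, 38.7 and 43.0 CPM in pMSCV and at 38.9, 30.1 and 66.2 CPM in SRF, where replicate 3 was the highest of all 18 libraries and replicate 2 the lowest. SRF-PDGFRB libraries were at 40.6, 39.95 and 55.0 CPM, those labelled SRF-FOXO1 at 51.8, 36.1 and 46.2, SRF-RELA libraries at 36.3, 34.4 and 45.0 and SRF-ICA1L libraries at 38.6, 33.0 and 41.1. In the 9 comparisons with pMSCV or SRF its log2 fold changes ran from -0.20 to 0.24, and in none did the libraries of the groups separate. The sign rested on SRF replicate 3: SRF against pMSCV was 0.22 with it and -0.17 without it, and 0.44 without SRF replicate 2. The sign of the 4 fusions against SRF turned as well in at least 1 such fit.

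NLRC5 is the class I transactivator, at chr16:56989485-57083531 on the plus strand. It was at 55.5, 51.4 and 63.7 CPM in pMSCV, 56.6, 71.9 and 56.8 CPM in SRF, and 44.6, 78.5 and 67.3 CPM where the label is SRF-FOXO1. SRF-RELA libraries were at 53.6, 80.1 and 76.3 CPM, SRF-PDGFRB libraries at 58.5, 84.9 and 73.7 CPM, and SRF-ICA1L libraries at 50.0, 69.98 and 53.4 CPM. All pairs of groups overlapped. Its largest log2 fold changes were 0.36 in SRF-RELA (95% interval -0.13 to 0.84) and 0.35 in SRF-PDGFRB (95% interval -0.14 to 0.83), both against pMSCV and both with an edgeR adjusted p of 1.

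**Figure D2:**
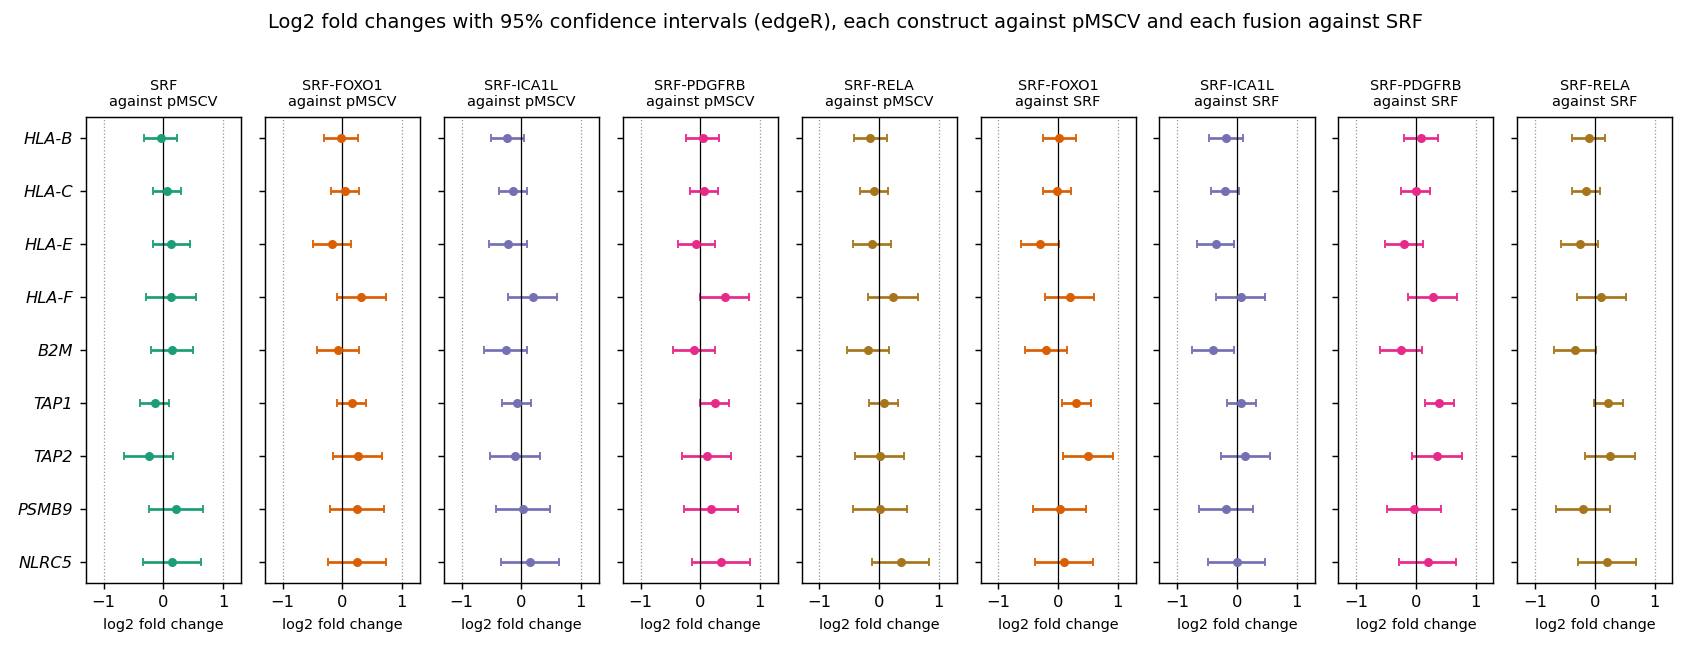
Log2 fold change (horizontal axes, dotted lines at -1 and 1) of each gene (vertical axis) in the 5 comparisons with pMSCV and the 4 with SRF, from edgeR, with 95% confidence intervals. All intervals lie inside the dotted lines, and the point farthest from 0 is TAP2 in SRF-FOXO1 against SRF, at 0.50.

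By construct, all 9 genes shared a direction only in SRF-ICA1L against SRF-PDGFRB and SRF-FOXO1 against SRF-ICA1L. In the first, 9 of 9 log2 fold changes were below 0 (-0.32 to -0.15), and their median was -0.20 against 0.003 for all tested genes. There 3 of 9 genes did not overlap (HLA-B, HLA-C and TAP1), against 23.8% of all genes. In the second, 9 of 9 were above 0 (0.05 to 0.36), 3 of 9 did not overlap (HLA-C, TAP1 and TAP2), against 8.63% of all genes, and the libraries labelled SRF-FOXO1 were the higher. The shared direction of the second rested on single libraries. Without SRF-FOXO1 replicate 1, HLA-E was at -0.11 and B2M at -0.005, and without SRF-FOXO1 replicate 2, NLRC5 was at -0.13. No gene turned sign in the first when 1 library was left out. These 2 comparisons share the SRF-ICA1L libraries. The 4 epithelial markers summed to 93.5 to 232 CPM in the libraries of SRF-ICA1L and SRF-FOXO1 and to 50.9 to 153 CPM in the rest, and their part in these differences was not tested. On CPM, SRF-ICA1L had the lowest group mean for 6 of the 9 genes and SRF-PDGFRB the highest for 6, which became 4 and 3 when libraries were scaled by TMM. Between those groups, scaling by total count in place of TMM moved the median of all genes by -0.114, and between SRF-ICA1L and pMSCV by -0.110.

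RELA is itself a known activator of class I promoters, and the SRF-RELA construct is named as a fusion of SRF to it. The name does not say which part of RELA the fusion holds, and whether it can bind an NF-kB consensus was not tested. Against pMSCV, RELA stood 1.51 higher on the log2 scale in SRF-RELA (edgeR adjusted p 5.78e-08), construct reads included. In the same comparison, 0 of the 9 class I genes passed (0.183% of all genes did), with 0 under an unadjusted p of 0.05 (3.83% of all genes) and 0 by DESeq2. The 4 genes whose promoter held an NF-kB consensus had log2 fold changes of -0.15 (HLA-B), -0.09 (HLA-C), -0.19 (B2M) and 0.08 (TAP1), and the upper ends of their 95% intervals were 0.13, 0.15, 0.17 and 0.32. HLA-B and B2M did not overlap between the groups, both lower in SRF-RELA, 2 of 9 against 14.9% of all genes.

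Of 39 further genes of the pathway, listed with earlier results of these data known, 35 could be tested. RELA alone passed, in its 5 comparisons. The rest included the peptide loading genes, the trimming peptidases, the other immunoproteasome genes, the constitutive catalytic subunits, the remaining regulators, the interferon gamma receptor with its kinases, and class I-like molecules. IFNG and IFNL1 had 0 counts in all 18 libraries, which allows up to 0.155 CPM in the smallest library. IFNB1 had 0 counts in the pMSCV libraries and at most 3 in any other, with 1 in each SRF-PDGFRB library. With the replicate number as a block in the fit, CIITA passed as well in SRF-PDGFRB against both controls, and IRF1 passed against other fusions only. CIITA, the class II counterpart of NLRC5, was at 2.54, 2.33 and 2.74 CPM in SRF-PDGFRB and at 0.850, 1.03 and 0.797 CPM in pMSCV, with no overlap. The log2 fold change of CIITA was 1.5 without the block (edgeR adjusted p 0.228) and 1.52 with it (edgeR adjusted p 0.0167), where the block called 0.178% of all genes. IRF1, which binds the IRF core, was at 44.0, 36.3 and 48.8 CPM in SRF-PDGFRB and at 28.2, 19.1 and 25.4 CPM in SRF-ICA1L. Its log2 fold change of SRF-ICA1L against SRF-PDGFRB was -0.72 (edgeR adjusted p 0.113), and the adjusted p was 0.00261 with the block, which called 4.76% of all genes there. With the block, IRF1 also passed in SRF-FOXO1 against SRF-PDGFRB (4.35% of all genes) and in SRF-PDGFRB against SRF-RELA (0.847%), and CIITA in all 5 comparisons of SRF-PDGFRB. MICA, a stress-induced class I-like molecule, passed with the block in the libraries labelled SRF-FOXO1 against pMSCV, at a log2 fold change of 0.56 (edgeR adjusted p 0.0193 with the block, which called 7.03% of all genes, and 0.402 without it).

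Some interferon response genes rose in SRF-PDGFRB, where no class I gene passed. Of 16 such genes, 3 passed against SRF, all higher (GBP1, CXCL9 and HLA-DRA), and 7 with the replicate block, where 0.146% and 2.34% of all genes did, and 2 passed against pMSCV (CXCL9 and HLA-DRA, 5 with the block), where 0.0324% did. Their median log2 fold change was 1.01 against SRF and 0.73 against pMSCV, beside 0.09 and 0.11 for the 9 class I genes, and -0.01 and 0.003 for all tested genes. The difference between the lists was not tested. GBP1, an interferon-induced GTPase, was at 134, 120 and 110 CPM in SRF-PDGFRB and at 67.8, 48.8 and 75.8 CPM in SRF, 0.89 higher on the log2 scale (edgeR adjusted p 0.0290, SE 0.15). HLA-DRA, the class II alpha chain, was at 2.44, 0.618 and 1.70 CPM in SRF-PDGFRB, while each SRF library held at most 2 counts and each pMSCV library at most 1. HLA-DRA therefore passed the filter on low counts (minimum count 10) through the SRF-PDGFRB libraries, where it is high. Its edgeR adjusted p was 0.0246 against SRF and 0.0379 against pMSCV. Because of the filter, these values and its place in the counts and medians above are a description only. CXCL9, with log2 fold changes of 7.12 against SRF and 5.97 against pMSCV, may have the same limit. In the 3 SRF-PDGFRB libraries HLA-B was at 752 to 898 CPM.

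Some of the 9 genes differed by replicate number. In the fit with a block, an F test of the number, added after the data had been seen, called 3 of 9 genes (33.3%), against 24.6% of all genes. TAP2 was highest in replicate 3 in 6 of 6 groups, 0.40 above replicate 1 on the log2 scale (edgeR adjusted p 0.00367). PSMB9 was higher in replicate 3 than in replicate 2 in 6 of 6 groups, with number 3 at 0.26 and number 2 at -0.15 relative to number 1 (edgeR adjusted p 0.0299). NLRC5 was lower in replicate 1 than in replicate 3 in 6 of 6 groups and highest in replicate 2 in 5 of 6 groups, 0.48 above replicate 1 (edgeR adjusted p 0.0127). After a correction for transcript length, also added, the count was 4 of 9 (28.1% of all genes), with HLA-E the addition (edgeR adjusted p 0.0414).

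The library's length slope went with the levels of the shortest transcripts. Over the 18 libraries, the correlation of log2 CPM with the library's length slope was -0.75 for PSMB9 (782 bases) and -0.59 for B2M (943 bases), against 0.44 for NLRC5 (6724 bases). The second longest transcript, TAP2 (5684 bases), was at -0.29, the same sign as the short ones. Without SRF replicate 3 and SRF-FOXO1 replicate 1, over 16 libraries, PSMB9 was at -0.37, B2M at -0.03, NLRC5 at 0.29 and TAP2 at -0.22. The B2M value thus rested on those 2 libraries. These are descriptions over libraries that share groups and replicate numbers.

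**Figure D3:**
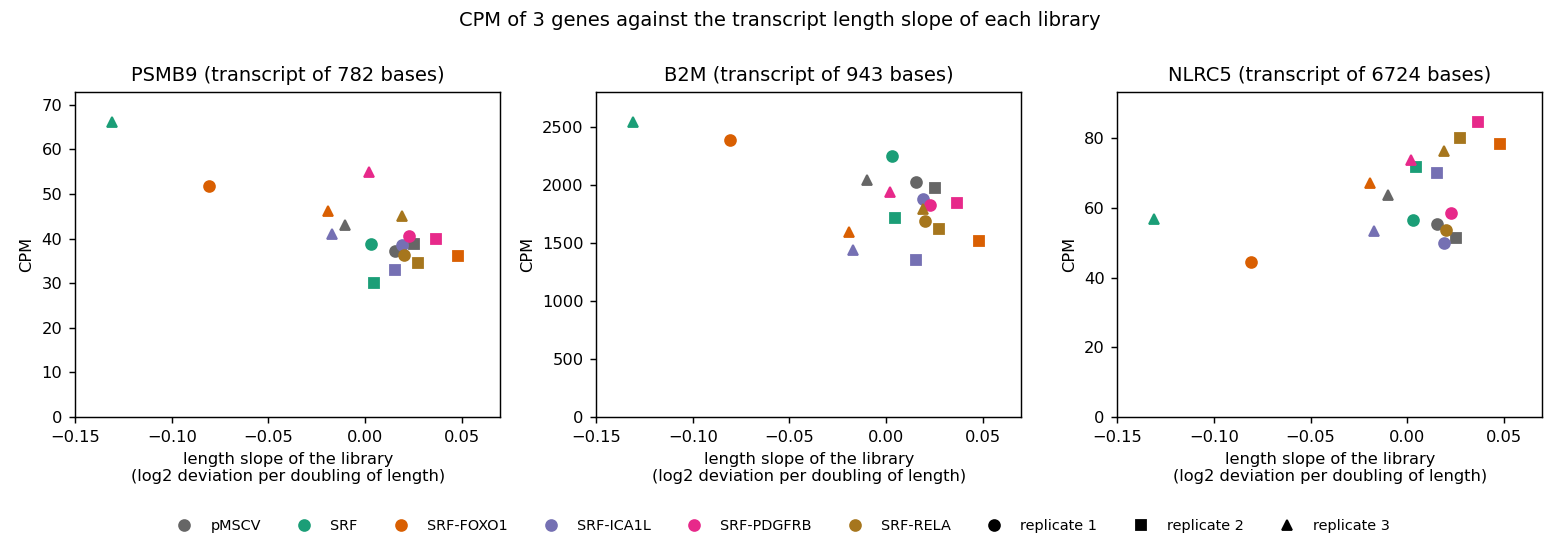
CPM (vertical axes, from 0) of PSMB9, B2M and NLRC5 against the length slope of each library (horizontal axes, mean log2 shift per doubling of transcript length), with colour for the group and shape for the replicate number. SRF replicate 3, at -0.131, holds the highest PSMB9 (66.2 CPM) and B2M (2545 CPM), and SRF-FOXO1 replicate 1, at -0.0806, holds the lowest NLRC5 (44.6 CPM).

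Across the 18 libraries, the genes varied together in part. Of 36 pairs of genes, 27 had a correlation above 0 and 11 above 0.5, with a median of 0.34. HLA-B and HLA-C, whose promoters and transcripts resemble each other, had the highest, 0.86. B2M was at 0.73 with HLA-E and at 0.71 with HLA-B, while TAP1 was at 0.61 with NLRC5 and at 0.59 with TAP2. PSMB9 was at 0.66 with TAP2 but at 0.12 with TAP1, which it faces across the shared start region. B2M and NLRC5 were at -0.51, the lowest pair. After the mean of each replicate number was subtracted, B2M with NLRC5 was at -0.31, HLA-B with HLA-C was at 0.91, TAP1 with TAP2 at 0.69 and TAP2 with PSMB9 at 0.46. The libraries share depth, groups and replicate numbers, and no test was made.

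**Figure D4:**
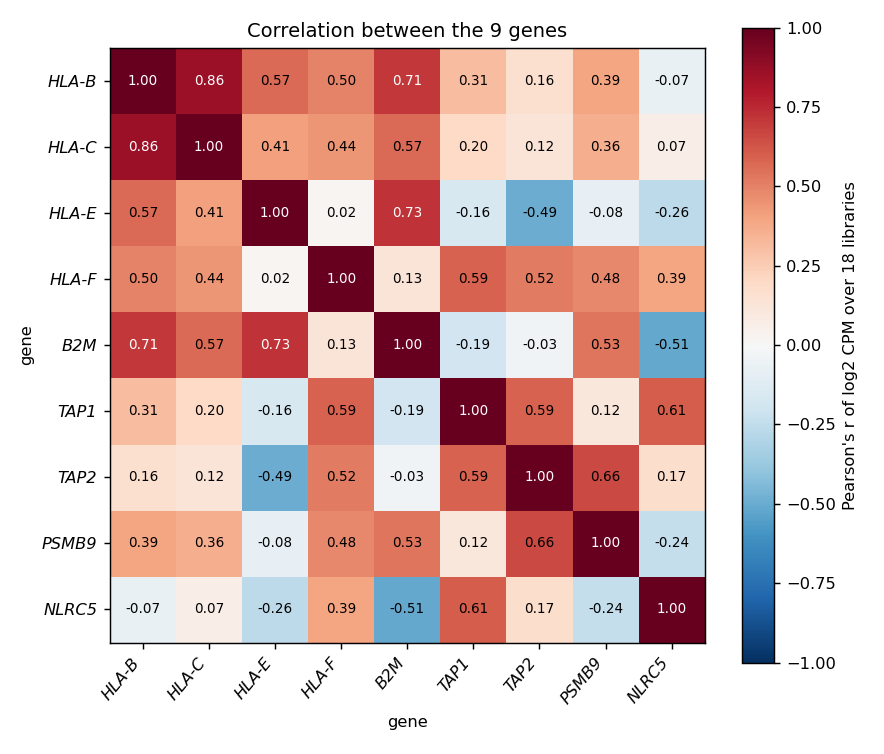
Pearson's r of log2 CPM over 18 libraries for each pair of the 9 genes (both axes), from -1 (blue) to 1 (red). HLA-B with HLA-C is the highest at 0.86, and B2M with NLRC5 is the lowest at -0.51.

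A score, the mean of the 9 genes' log2 CPM each scaled to an SD of 1 over the 18 libraries, summarised each library. It ran from -1.17 in SRF-ICA1L replicate 3 to 1.00 in SRF-PDGFRB replicate 3. Among the 12752 other genes whose log2 CPM averaged 1 or more, those most like it over the 18 libraries were NFKBIE (r = 0.83), LYPLA1 (0.79), NCK1 (0.77), ENSG00000250519 (0.73), HCCS (0.73), ENSG00000218426 (0.73), MED21 (0.72) and TMED5 (0.71). Of these 8, 3 (NFKBIE, LYPLA1 and HCCS) were also among the 8 most like once the replicate numbers' means were subtracted. IRF1 was at 0.39.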

How the data were processed

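Per the file headers, the authors deposited 1 table with Ensembl gene identifiers as rows and the raw counts of 18 libraries as columns. Libraries came from a stranded mRNA kit and a NovaSeq instrument, per the labels' protocols. The submitters' processing notes name FastQC 0.11.8, Trimmomatic 0.39, HISAT2 2.12.1, featureCounts and Subread 2.0.3 and the build GRCh38. The annotation release, the use of strand and the treatment of shared reads are not given in the sources used here. Gene positions, overlaps and transcript lengths were taken from GENCODE release 29, using 1 transcript per gene, and promoters from RefSeq.

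Genes were filtered with filterByExpr (minimum count 10, 18544 of 61487 left) and scaled by TMM in edgeR 4.0.16 (R 4.3.3). All 18 libraries entered 1 robust quasi-likelihood fit with 12 residual degrees of freedom, and 15 pairs of groups were compared by two-sided F tests. Adjustment was by Benjamini-Hochberg over all tested genes, with calls under 0.05. An SE is the size of the log2 fold change over the square root of F. Printed CPM is scaled to the library's total, and correlations between genes use TMM-scaled log2 CPM. The script was tested on simulated data. A count of 0 is read as up to 3 counts, for counting error only.

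Same-numbered libraries deviated together from their group means: of 45 pairs from different groups, 44 had a correlation across genes over 0.1 (median 0.375). The 90 pairs with different numbers had a median of -0.18. Deviations from a group mean cancel within the group, so this second value largely follows from the first and is not separate evidence. The pairing is read from the values, since the labels do not say what a number marks. The exception lies between SRF and SRF-FOXO1, so the block's result for that comparison is given only with the alternatives.

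The 9 genes and all lists were chosen with earlier results of these data known. The genes named are the 9, the pathway genes called in at least 1 comparison (with or without the block), up to 4 interferon response genes and the 8 genes most like the score. CXCL9, HLA-DRA, IFNB1, IFNG and IFNL1 were named outside this rule, after their values were seen. Alternatives were DESeq2 1.42.0 (size factors and Wald test), scaling by total count, other filters, fits to 2 groups, the replicate block and leaving out each library. A correction for transcript length, that correction with the block, and leaving out the 2 libraries with the lowest length slopes were added after seeing the data.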

Additional observations from a re-analysis of the deposited data

How the results depend on the processing

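The number of the 9 genes called was 0 in each of the 15 comparisons with DESeq2 size factors, scaling by total count, a minimum of 10 counts in every library, no filter at all, only the 2 groups in the fit, the DESeq2 Wald test, and the added length correction. The smallest adjusted p under these was 0.0699, with total count scaling in SRF-ICA1L against SRF-PDGFRB. The one exception to 0 was SRF-FOXO1 against SRF, where TAP2 was called under 4 settings. With the replicate block the count was 1 (log2 fold change 0.53, edgeR adjusted p 0.0123), where 7.23% of all genes were called in place of 1.36%. The block also called 2 further pathway genes there, both lower with the label SRF-FOXO1: TAPBPL, a tapasin-related loading protein (-0.38, edgeR adjusted p 0.0331, 0.265 without it), and FCGRT, the neonatal Fc receptor chain (-0.61, edgeR adjusted p 0.0317, 0.297 without it). With the length correction and the replicate block together the count of the 9 was 1 (0.52, edgeR adjusted p 0.0276). Leaving out each library in turn, in 90 fits, gave 0 to 1, with the 1 without SRF replicate 3. Of the 135 log2 fold changes, 46 turned sign in at least 1 of these fits, and of those 2 were at least 0.2 in size, both of PSMB9 (SRF against pMSCV and SRF-RELA against SRF). Without the 2 libraries with the lowest length slopes the count was 1 again. The share of all genes called is not given for the fits that left out libraries or for the length correction with the block. With the length correction alone the TAP2 log2 fold change was 0.47. In the other 14 comparisons the block changed no call among the 9 genes. Of the 54 group means in CPM, 4 moved by more than 1 SD under TMM scaling: HLA-B to 791 in pMSCV, HLA-E to 397 in SRF-PDGFRB, and B2M to 1951 in pMSCV and 1810 in SRF-PDGFRB. Summing identifiers per symbol gave no other value, since each symbol had 1 identifier.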
